A study of Rattus norvegicus with 20 samples.

Results

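Lepr encodes the leptin receptor and is the gene mutated in the obese Zucker rat. It was followed as 1 gene, identifier ENSRNOG00000023664, of the 32883 genes quantified in the choroid plexus of each of 20 rats, and was chosen because of that mutation. Leptin is a hormone released by fat tissue in proportion to fat mass, and its receptor is a class I cytokine receptor that signals through the kinase JAK2 and the transcription factor STAT3 to restrain feeding. The choroid plexus, the epithelial tissue of the brain ventricles that secretes cerebrospinal fluid, is known as a site rich in leptin binding, and the receptor was first cloned from it. Short forms of the receptor are known there, whereas the long, signalling form is best known from the hypothalamus. The fa allele of the Zucker rat is a missense change, glutamine to proline, in the extracellular part of the receptor that all membrane forms share.

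All rats were female Zucker rats of 16 weeks, and the choroid plexus of the lateral ventricles and of the fourth ventricle was pooled for each rat and sequenced as 1 library. In the untreated cohort, 6 Lean rats carried 1 fa allele (+/fa) and 6 Obese rats carried the mutation on both alleles (fa/fa). In the injected cohort, 4 Lean+VEH rats (+/fa) received sesame oil under the skin and 4 Obese+TT rats (fa/fa) received testosterone propionate in sesame oil. There was no wild-type rat, no lean rat with testosterone and no obese rat with vehicle, so that within the injected cohort genotype and testosterone cannot be told apart, and between cohorts injection, any difference in handling and, for the obese rats, testosterone cannot be told apart. Because fa changes the protein sequence, the RNA level does not test the genotype labels. A value for the gene as a whole also does not separate the long form of the receptor from the short ones.

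The start of Lepr lies within another gene, which bears on how its RNA can be counted. In the RefSeq gene table of the rat build GRCr8, Lepr starts inside Leprot, the leptin receptor overlapping transcript gene, on the same strand, as do 434 of 19005 protein-coding genes (2.28%) with respect to some other gene. The 250 bases before each start are given here on the plus strand of chromosome 5, from RefSeq, because the window of Leprot precedes a gene start of its own while that of Lepr lies within the transcription unit of Leprot. The Leprot window is chr5:121404920-121405169 and the Lepr window is chr5:121409485-121409734, and capitals mark the AG that stands directly before the annotated start of Lepr.
Leprot: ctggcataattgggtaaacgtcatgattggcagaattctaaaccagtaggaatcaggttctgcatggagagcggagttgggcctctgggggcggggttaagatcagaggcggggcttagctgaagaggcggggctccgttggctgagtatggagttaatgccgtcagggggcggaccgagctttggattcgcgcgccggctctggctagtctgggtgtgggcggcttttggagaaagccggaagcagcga
Lepr: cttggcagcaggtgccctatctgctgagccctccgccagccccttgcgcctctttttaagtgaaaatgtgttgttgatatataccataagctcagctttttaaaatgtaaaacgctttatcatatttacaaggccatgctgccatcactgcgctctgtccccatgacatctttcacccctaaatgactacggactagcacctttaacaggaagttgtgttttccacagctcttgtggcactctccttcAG
The letters AG end an intron at most splice sites. They directly preceded the annotated start of 1475 protein-coding genes (7.76%), and 37 genes (0.19%), Lepr among them, both started inside another gene of the same strand and were preceded by AG. That share is close to what the single shares, 2.28% and 7.76%, give for unrelated traits. The AG before Lepr is a description of the annotation and not a measurement in these rats. How reads shared by Lepr and Leprot were divided was not given in the sources used here, so the Lepr values are uncertain to that degree, and no level of Leprot could be set beside them because none of the 8 protein-coding neighbours of Lepr in the table had an identifier paired with its symbol here. The coordinates belong to GRCr8, while the expression values were made on Rnor_6.0.

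Expression was given as TPM, transcripts per 1000000, in which the length of a gene and the depth of a library are divided out. The depth of each library therefore cannot be read from these values. A rat had 14968 to 16860 genes above 0 TPM, with the lowest number in Lean+VEH rat 14. Transthyretin (Ttr), the main secreted protein of the tissue, took 25.8 to 39.3% of the TPM, so that its level moves the TPM of all other genes. The 10 markers listed for choroid plexus epithelium were all detected in every rat, with Otx2, a transcription factor of this tissue, as low as 7.85 TPM in Obese rat 10. No pair of libraries was near identical, with at most 1.92% of the genes above 0 identical in any of the 42 pairs of rats of one group.

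Lepr was detected in every rat and ranked from 257th to 2865th among the genes by TPM. In the Lean rats it was at 112.3, 65.54, 37.8, 37.61, 33.67 and 32.25 TPM in rats 1 to 6 (mean 53.2 ± 31.5, SD, n = 6; median 37.7). In the Obese rats it was at 29.2, 30.88, 31.01, 30.43, 40.28 and 38.44 TPM in rats 7 to 12 (33.4 ± 4.72, SD, n = 6; median 30.9). Lean rats 1 and 2 were above every Obese rat, while the other 4 Lean rats lay within the range of the Obese rats.

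All 8 injected rats were above all untreated rats other than Lean rats 1 and 2. The Lean+VEH rats were at 58.83, 358.77, 43.1 and 52.97 TPM in rats 13 to 16 (128 ± 154, SD, n = 4; median 55.9). The Obese+TT rats were at 57.38, 53.61, 85.69 and 62.81 TPM in rats 17 to 20 (64.9 ± 14.4, SD, n = 4; median 60.1). Rat 14 was 8.32 times the lowest rat of its group and the highest of all 20 rats, and of the other 3 Lean+VEH rats 1 lay within the Obese+TT range and 2 below it. By the median, the order was Obese, Lean, Lean+VEH and Obese+TT, and each group overlapped with its neighbours in this order. The Obese rats overlapped with neither injected group.

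**Figure D1:**
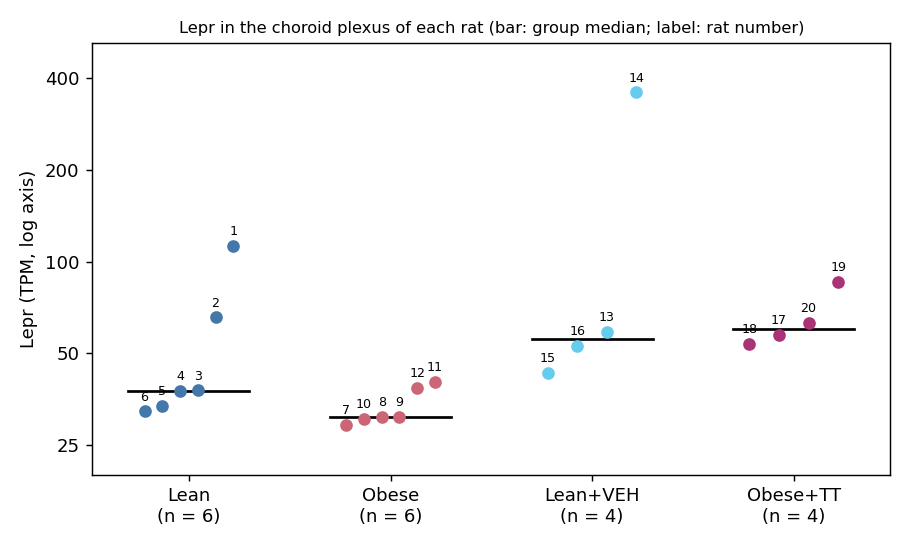
Lepr in TPM (vertical, logarithmic axis) for each of the 20 rats (points, labelled with the rat number) in the groups Lean (n = 6), Obese (n = 6), Lean+VEH (n = 4) and Obese+TT (n = 4), with bars at the group medians. Lean rats 1 and 2 (112.3 and 65.54 TPM) and Lean+VEH rat 14 (358.77 TPM) stand above their groups, and all Obese+TT rats lie above all Obese rats.

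The first question was whether Lepr RNA differed between lean and obese rats. In the untreated rats it was 0.52 lower in Obese than in Lean rats on the log2(TPM + 0.1) scale (log2 fold change -0.52, standard error 0.26, 95% interval -1.06 to 0.03), a fold of 0.699. This did not pass the threshold of 0.05 in limma with Benjamini-Hochberg adjustment (adjusted p = 0.558), where 0 of the 15176 genes tested passed (0%) and 1466 had an unadjusted p under 0.05 (9.66%). The exact two-sided permutation test of Lepr alone gave p = 0.0887 (0.177 after Benjamini-Hochberg adjustment over the 4 group comparisons). The difference rested on Lean rats 1 and 2. Without them the 4 remaining Lean rats were at 35.3 ± 2.80 TPM (SD) and the log2 fold change was -0.09 (exact permutation test, p = 0.4). They were left out because of their Lepr values, so this describes the remaining rats and is no independent test.

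In the injected rats the log2 fold change of Obese+TT against Lean+VEH was -0.39 (standard error 0.57, 95% interval -1.66 to 0.89), and it did not pass (limma, Benjamini-Hochberg adjusted p = 0.915). Here 0 of 15259 genes passed (0%), 1134 had an unadjusted p under 0.05 (7.43%), and the exact permutation test of Lepr gave p = 0.914. The direction was set by 1 rat. Without Lean+VEH rat 14 the remaining 3 rats were at 51.6 ± 7.95 TPM (SD), and Lepr was 0.32 higher in Obese+TT on the log2 scale (exact permutation test, p = 0.229, where 0.0286 is the smallest this design allows). Rat 14 was likewise left out because of its Lepr value, so this too is no independent test. With all 8 rats the 95% interval of the fold ran from 0.317 to 1.85, so that neither a difference nor the lack of one was shown.

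The obese against lean differences of the 2 cohorts were compared in 1 fit of the 20 rats. They differed by 0.13 (injected minus untreated, standard error 0.61, 95% interval -1.15 to 1.41; limma, Benjamini-Hochberg adjusted p = 0.975), in a test that 0 of 15406 genes passed (0%). Leaving out Lean+VEH rat 14 moved this value to 0.83 and leaving out Lean+VEH rat 15 moved it to -0.18, so its sign depended on single rats.

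The clearest difference of Lepr lay between the cohorts of obese rats. It was 1.92-fold higher in Obese+TT than in Obese rats (95% interval 1.57 to 2.36; log2 fold change 0.94, standard error 0.14; limma, Benjamini-Hochberg adjusted p = 9.28e-05), with no overlap between the groups. The exact permutation test gave p = 0.00476, the smallest these 10 rats allow, and 0.019 after adjustment over the 4 comparisons. Across this pair of groups, however, 58.1% of the 15389 genes tested passed, 41.7% as higher, and 34.1% were higher without overlap, so Lepr shared its direction with a large part of the transcriptome. The median gene was 0.246 higher on the log2 scale, and Lepr stood at the 85.3rd percentile of all log2 fold changes. When the libraries were rescaled by the median ratio, the median gene moved to 0.039 and Lepr remained higher by 0.73 (limma, Benjamini-Hochberg adjusted p = 0.000234), while the split of all genes past the threshold went from 6418 higher and 2523 lower to 4731 higher and 4114 lower. With the spread estimated over all 20 rats, in which the 3 high lean rats take part, the same difference had an adjusted p of 0.0679 in limma with Benjamini-Hochberg adjustment.

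Between the lean cohorts Lepr was 0.81 higher in Lean+VEH than in Lean rats on the log2 scale (standard error 0.54, 95% interval -0.37 to 2.00; limma, Benjamini-Hochberg adjusted p = 0.222; exact permutation test, p = 0.286), and the groups overlapped. Of 15326 genes 58.2% passed in this comparison, 6394 higher and 2531 lower, and by the median-ratio scaling 4932 higher and 4147 lower. The median gene was 0.243 higher, and 0.045 higher after that scaling. Without Lean rats 1 and 2 and Lean+VEH rat 14, Lepr was 1.45-fold higher (log2 fold change 0.54, standard error 0.12; limma, Benjamini-Hochberg adjusted p = 0.00402; exact permutation test, p = 0.0286, the smallest for 3 against 4 rats). Leaving those 3 rats aside, the 10 other untreated rats spanned 29.2 to 40.28 TPM and the 7 other injected rats 43.1 to 85.69 TPM. These rats were left out because of their Lepr values, so this result describes the remaining rats and is no independent test.

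**Figure D2:**
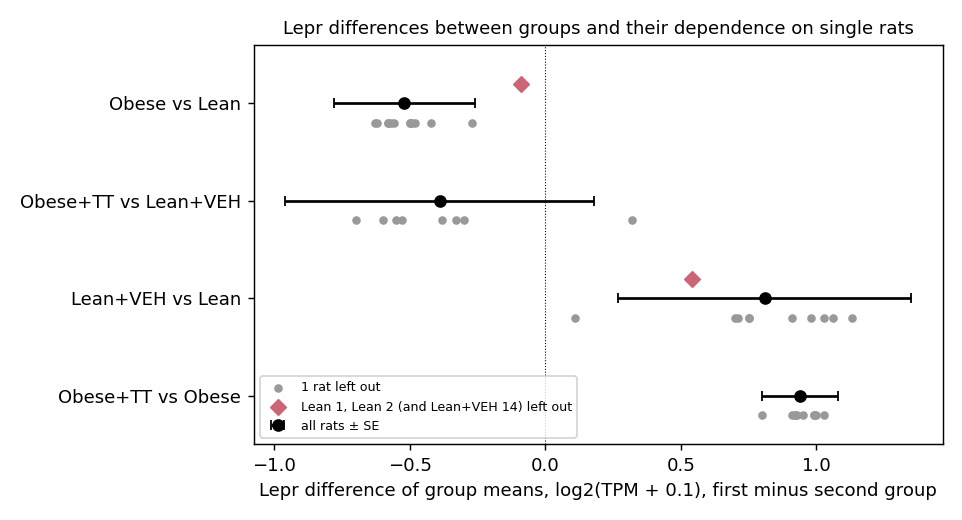
Differences of mean Lepr between groups on the log2(TPM + 0.1) scale (horizontal, first minus second group) for the 4 comparisons: black points with bars are all rats with the standard error, grey points each leave out 1 rat, and red diamonds leave out Lean rats 1 and 2 and, where it takes part, Lean+VEH rat 14. Obese+TT against Obese stayed between 0.80 and 1.03 whichever rat was left out, while Obese+TT against Lean+VEH ranged from -0.70 to 0.32.

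The spread of Lepr between rats ranked high among genes in both lean groups. Over the genes averaging 10 TPM or more in a group, the SD of log2(TPM + 0.1) of Lepr ranked 46th of 5988 in Lean rats, at 0.71 against 0.14 for the median gene. In Lean+VEH rats it ranked 27th of 6937, at 1.42 against 0.12. In the Obese rats it ranked 1740th of 6062 (0.20 against 0.15) and in the Obese+TT rats 249th of 6924 (0.30 against 0.10). The mean absolute deviation from the group median on the log2 scale was 0.46 in Lean and 0.134 in Obese rats (exact two-sided permutation test, p = 0.294), and 0.801 in Lean+VEH and 0.201 in Obese+TT rats (exact test, p = 0.571). A larger spread in lean rats was thus not shown by the test, since it came from 2 rats in one cohort and from 1 in the other. Without rat 14 the injected difference was -0.0521, the opposite sign.

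**Figure D3:**
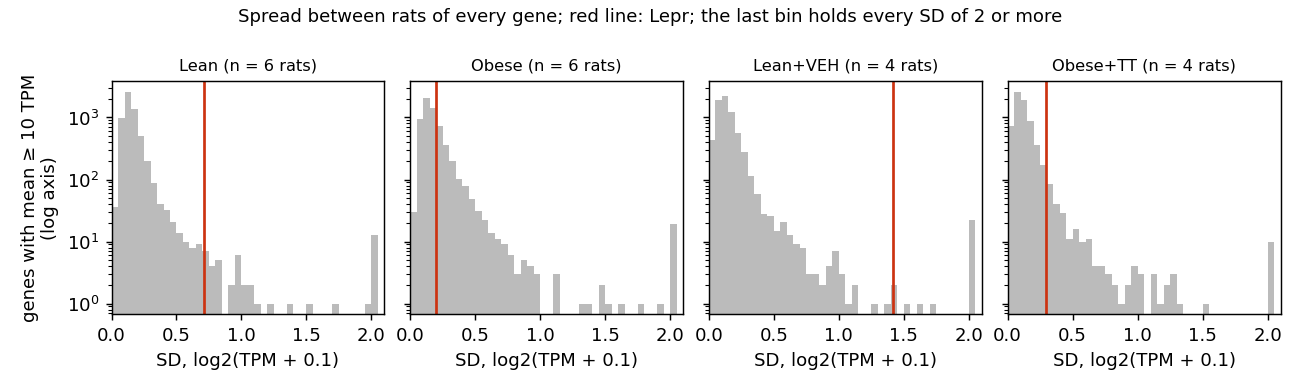
Number of genes (vertical, logarithmic axis) by the SD between rats of log2(TPM + 0.1) (horizontal) for genes averaging 10 TPM or more, in each of the 4 groups, with Lepr as a red line and every SD of 2 or more in the last bin. Lepr lies in the far tail in Lean (0.71) and Lean+VEH rats (1.42) and within the bulk in Obese rats (0.20), and in Obese+TT rats (0.30) it ranks 249th of 6924 genes.

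Lean+VEH rat 14 was picked as the rat with the highest Lepr, so a wide gap in Lepr was favoured in advance. Among genes that averaged 10 TPM or more over all rats, its gap above the next rat of its group was widest in Lepr. Gaps below the group were not ranked. Lepr in rat 14 was 2.61 above the next highest rat of its group on the log2 scale. Among those genes the next gap was 1.13, for ENSRNOG00000045989 (12.33 TPM, with 0 to 5.58 TPM in the other Lean+VEH rats), followed by 1.05 for AABR07039304.1 (ENSRNOG00000048213), at 144.0 TPM against 52.95 to 69.65 TPM. For AABR07039304.1 rat 14 was also above all 19 other rats (highest 73.62 TPM), whereas ENSRNOG00000045989 reached 34.61 TPM elsewhere. The next 3 genes had gaps of 0.811, 0.799 and 0.774 and had no symbol. The library of rat 14 differed from the others mostly downwards. Of the 6472 genes of that abundance, 3 were above 2 times the highest other rat of the group (0 to 11 in the other 19 rats) and 23 were under 0.5 times the lowest one (1 to 12), and 34 genes of any abundance were listed at 0 where every other rat of the group had at least 1 TPM (0 to 23). The part of these features in its Lepr value was not tested.

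Rat 14 was picked by its Lepr value, so setting Lepr beside other leptin signalling genes there describes the rat and is no test. Of 24 genes on the list, 4 could be matched to an identifier here, Lepr among them, so most of the pathway, including Jak2, Stat3 and Socs3, was not analysed here. Ptpn11, the phosphatase SHP2 that docks on the activated receptor, was at 30.57 to 35.36 TPM in Lean and 29.87 to 39.37 TPM in Obese rats, and at 48.73 to 57.1 TPM in Lean+VEH and 51.22 to 54.7 TPM in Obese+TT rats. The groups of each cohort overlapped and the cohorts did not, while between the lean groups 34% of all genes were higher without overlap. In rat 14 Ptpn11 was at 48.73 TPM and Mapk3 at 41.9 TPM, each the lowest of the Lean+VEH rats, and Pias3 was at 12.24 TPM, the highest of them, with the others at 10.51 to 12.13 TPM.

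Within cohorts, 0 of these 4 genes passed the threshold in limma on TPM, in comparisons that 0% of all genes passed. The paper, with DESeq2 on gene counts, reports differentially expressed genes in both within-cohort comparisons, so the 0% describes limma on TPM only. The paper names Mapk3 among the genes regulated in the Obese+TT rats. Against the untreated Obese rats all 4 signalling genes were higher in Obese+TT rats, as were 41.7% of all genes. Their median log2 fold change was 0.48, against 0.246 for all genes, but it includes Lepr itself (0.94). Among the others the middle value was 0.34, that of Pias3. Ptpn11 rose from 34.6 ± 4.52 to 53.3 ± 1.47 TPM (SD; log2 fold change 0.63, standard error 0.09; limma, Benjamini-Hochberg adjusted p = 0.000113). Mapk3, a kinase downstream of the receptor, rose by 0.22 on that scale (limma, Benjamini-Hochberg adjusted p = 0.0354), less than the median gene, and Pias3, an inhibitor of STAT3, by 0.34 (0.00517). Between the lean cohorts, where 41.7% of all genes were higher, 1 of the 4 was higher, Ptpn11, by 0.64 (limma, Benjamini-Hochberg adjusted p = 5.33e-06). Mapk3 (log2 fold change 0.03) and Pias3 (-0.03) did not pass there. By the median-ratio scaling 2 of the 4, Lepr and Ptpn11, were higher in Obese+TT than in Obese rats, with Mapk3 (0.01) and Pias3 (0.13) no longer past the threshold, and between the lean cohorts Ptpn11 was again higher while Pias3 was lower (log2 fold change -0.24; limma, Benjamini-Hochberg adjusted p = 0.0235).

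Of 14 related class I cytokine receptors, the 2 that could be matched were Il11ra1, a receptor for interleukin-11, and Prlr, the prolactin receptor, which is abundant in this epithelium. Neither differed between obese and lean rats past the threshold. Il11ra1 stayed between 40.66 and 51.93 TPM in all rats. Prlr was at 147.84 to 184.94 TPM in Obese+TT and at 244.79 to 289.13 TPM in Lean+VEH rats, lower without overlap, as were 1.66% of all genes in this comparison, yet it did not pass (log2 fold change -0.63, standard error 0.09; limma, Benjamini-Hochberg adjusted p = 0.127). Prlr was higher in Lean+VEH than in Lean rats (log2 fold change 0.79, standard error 0.13; limma, Benjamini-Hochberg adjusted p = 0.000206), and its difference between Obese+TT and Obese rats was 0.27 (0.158). By the median-ratio scaling Prlr was still higher between the lean cohorts (0.58), and Il11ra1 was lower there (-0.28; limma, Benjamini-Hochberg adjusted p = 0.00252).

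Of the 3 genes linked to leptin uptake, 2 could be matched, and both were higher in the injected rats of either genotype, in comparisons that 41.7% of all genes passed as higher. Lrp1, an endocytic receptor of the lipoprotein receptor family, was at 23.58 to 31.4 TPM in Lean, 22 to 43.2 TPM in Obese, 80.86 to 106.53 TPM in Lean+VEH and 84.01 to 105.21 TPM in Obese+TT rats. Its log2 fold change was 1.69 in both cross-cohort comparisons (limma, Benjamini-Hochberg adjusted p = 1.2e-07 for the lean and 1.66e-05 for the obese rats). Clu, clusterin, a carrier protein of the cerebrospinal fluid that binds leptin, rose by 0.44 and 0.46 (0.000154 and 0.000189). By the median-ratio scaling both genes still passed as higher in both comparisons, Lrp1 by 1.49 and 1.47 and Clu by 0.24 and 0.24. Within cohorts, neither gene passed.

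Markers of the cell types in the tissue moved between the cohorts as well. Of the 10 epithelial markers, 8 were higher and 0 lower past the threshold in Lean+VEH than in Lean rats (median log2 fold change 0.69), against 41.7% of all genes higher and 16.5% lower. Ttr did not pass there (-0.23; limma, Benjamini-Hochberg adjusted p = 0.378), although it was at 272068.7 to 305445.63 TPM in Lean+VEH and 311516.23 to 390134.76 TPM in Lean rats. In Obese+TT against Obese rats 6 of the 10 markers were higher and 1, Ttr, lower (median 0.62), against 41.7% and 16.4% of all genes. Their summed TPM, most of it Ttr, was nevertheless below that of the untreated rats in every injected rat, at 320100 to 397400 in Lean, 331400 to 400800 in Obese, 284900 to 317100 in Lean+VEH and 270700 to 307400 in Obese+TT rats. By the median-ratio scaling the counts of epithelial markers higher and lower were 7 and 0, and 6 and 1. Kl, which encodes klotho, rose by 1.12 and 1.16 and Kcnj13, an apical potassium channel, by 1.07 and 1.04. In the same rats, 4 of the 5 stromal fibroblast markers matched were lower in both comparisons, with only Pdgfra higher (16.5% and 16.4% of all genes were lower), and the summed TPM of the 5 was 803 to 972 in Lean and 620 to 1098 in Obese rats, against 95.1 to 124 in Lean+VEH and 80.43 to 104.4 in Obese+TT rats. Mgp was most of that stromal sum in the untreated rats (651.04 to 789.67 TPM in Lean and 485.66 to 912.01 TPM in Obese rats). In the injected rats Pdgfra, which rose, was a large part of it (39.33 to 77.23 TPM in Lean+VEH and 53.18 to 68.01 TPM in Obese+TT rats). The sum therefore understates the fall of Mgp, whose log2 fold changes were -4.58 and -5.02. For the 3 mural cell markers (Rgs5, Myh11 and Tagln) the sums were 147 to 192, 142 to 244, 13.7 to 21.7 and 9.7 to 11.7 TPM in Lean, Obese, Lean+VEH and Obese+TT rats. All 3 were lower in Obese+TT than in Obese rats, whereas between the lean cohorts Rgs5 and Tagln were lower and Myh11 did not pass (log2 fold change -0.14; limma, Benjamini-Hochberg adjusted p = 0.39), although it did by the median-ratio scaling (-0.34, 0.0304). Plvap, the 1 matched endothelial marker and a gene of fenestrated vessels, was at 39.95 to 60.34 TPM in the untreated and 1.68 to 10.58 TPM in the injected rats. Gja1, the 1 astrocyte marker matched, was at 4.79 to 9.12 TPM in the untreated and 1.21 to 3.39 TPM in the injected rats. Ptgds and Crabp2, the 2 genes matched of 8 listed as meningeal, passed in no comparison, and meningeal content cannot be read from these 2 alone. The ependymal marker Cfap126 passed only between the lean cohorts by the median-ratio scaling, as lower (-0.33). The part of this shift in the Lepr difference between Obese+TT and Obese rats was not tested, and in bulk tissue more cells of a type cannot be told apart from more RNA per cell.

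**Figure D4:**
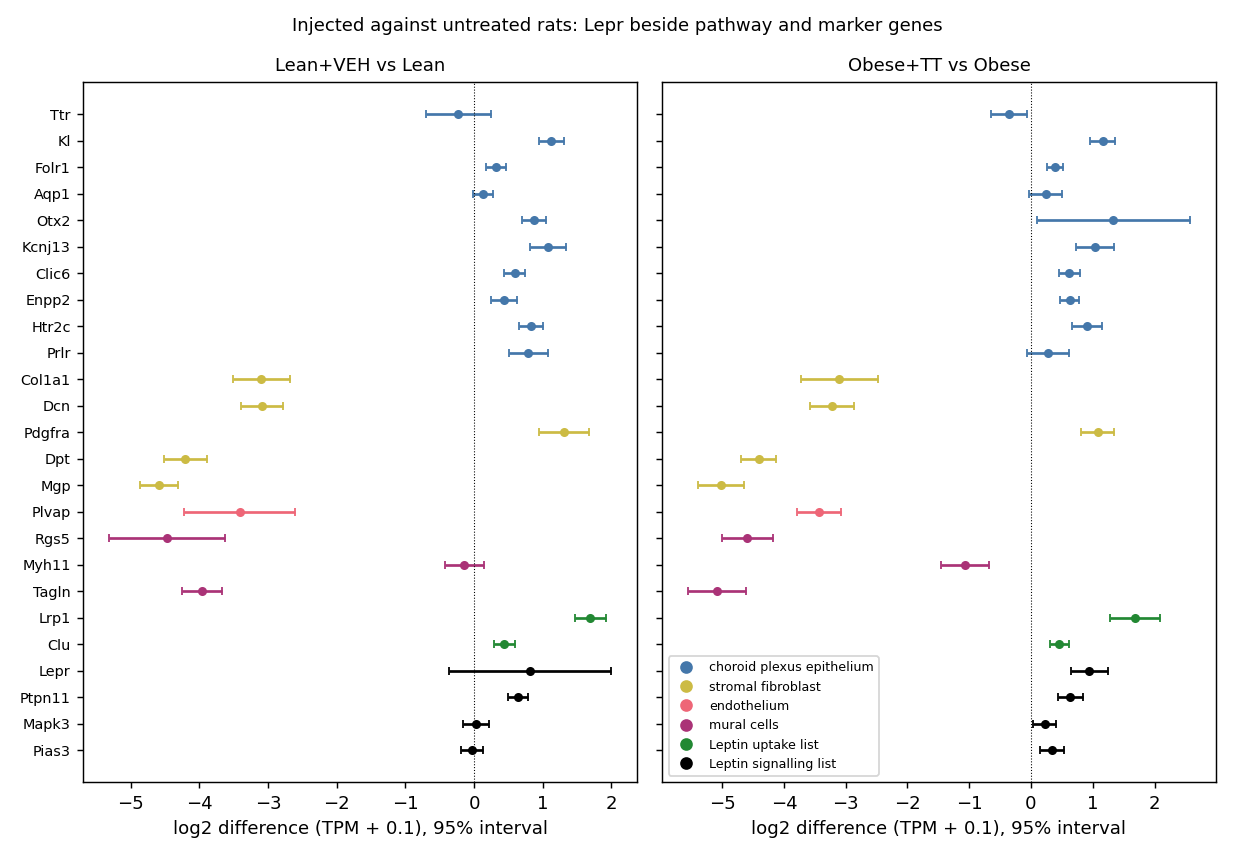
Log2 differences of injected against untreated rats with 95% intervals (horizontal) for Lepr and the matched pathway and marker genes, for the lean (left) and the obese rats (right), with colours for the gene lists. Epithelial, signalling and uptake genes lie mostly above 0, most stromal and vessel markers lie far below it, and the interval of Lepr is wide in the lean (-0.37 to 2.00) and narrow in the obese rats (0.65 to 1.24).

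Marker levels differed between the rats with high Lepr of the untreated groups. The high Lean rats 1 and 2 had Rgs5 at 96.62 and 92.09 TPM, within the 91.68 to 118.98 TPM of the other Lean rats, and they had the lowest and the highest Lrp1 of their group. Obese rats 11 and 12, which had the highest Lepr of their group, also had its highest Rgs5 (120 and 121.9 TPM), Myh11 (12.85 and 13.52 TPM), Plvap (60.34 and 57.12 TPM) and Lrp1 (41.98 and 43.2 TPM), genes picked after their values were seen. Other markers did not follow this order. The mural marker Tagln was at 72.58 and 108.59 TPM in these rats and at 90.04 TPM in rat 7, which had the lowest Lepr of the group, and the stromal marker Dcn was at 77.6 and 105.49 TPM, within or above the 75.51 to 93.47 TPM of the others. Over genes averaging 10 TPM or more, the median log2 difference from the mean of all rats was 0.016 and -0.022 in rats 11 and 12. It was -0.206 to -0.078 in the other Obese rats, so the typical gene was also higher in rats 11 and 12. The part of this shift and of these genes in the Lepr values of the Obese rats was not tested. The sum of the 5 stromal markers in rat 14 was 103.4 TPM, within the range of the other Lean+VEH rats, but 69.33 TPM of it was Pdgfra. Among non-epithelial markers, Dcn (7.86 TPM), Mgp (23.71), Rgs5 (1.68), Gja1 (1.21), Crabp2 (40.54) and Cfap126 (189.12) were lowest of the group in rat 14. Col1a1, Dpt, Plvap, Myh11, Tagln, Ptgds and the haemoglobin genes were not. The part of these markers in the Lepr value of rat 14 was not tested.

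To find genes whose level followed Lepr from rat to rat, the slope of every other gene on log2 Lepr was fitted over the 20 rats with the 4 group means in the model. Of 15405 genes 2 passed in limma with Benjamini-Hochberg adjustment (0.013%), both lower where Lepr was higher, and 816 had an unadjusted p under 0.05 (5.30%). ENSRNOG00000060211 had a slope of -0.63 (standard error 0.09; limma, Benjamini-Hochberg adjusted p = 0.012). It was at 19.67 and 13.05 TPM in Lean rats 1 and 2, at 9.21 TPM in rat 14, and at up to 30.1 TPM in the Lean and 45.11 TPM in the Lean+VEH rats. ENSRNOG00000046449 had a slope of -1.46 and was listed at 0 TPM in rat 14, with up to 6.3 TPM in its group. Without rat 14, 0 genes passed, and the slope of the first gene was -0.32. Without Lean rat 1, 25 genes passed, so the number depended on single rats.

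Correlation within each cohort gave no gene whose likeness to Lepr survived adjustment. Pearson's r and Spearman's rho were computed for the 12093 genes averaging 1 TPM or more, in the 12 untreated and in the 8 injected rats, 48372 relations in all. These correlations pool the Lean with the Obese or the Lean+VEH with the Obese+TT rats, so they hold differences between the groups as well as between the rats of a group. None had an adjusted permutation p under 0.05, the lowest being 0.484 for r and 0.363 for rho in the untreated and 0.793 and 1.0 in the injected rats, and 2.17% and 3.62% of the genes had an unadjusted permutation p of r under 0.05. The 5 genes with the largest smaller r of the 2 cohorts had values of 0.61 to 0.68, and none had a symbol here. The first, ENSRNOG00000061587, had r = 0.68 in the untreated (permutation p = 0.0103) and 0.729 in the injected rats (exact permutation p = 0.0892), with rho = 0.592 (permutation p = 0.0461) and 0.167 (exact permutation p = 0.703). Without the 2 rats farthest from the median of Lepr, Lean rats 1 and 2 and, in the injected cohort, Lean+VEH rat 14 and Obese+TT rat 19, its r was 0.40 and -0.0031, so the likeness rested on those rats.

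The gene with a symbol that was most like Lepr, chosen after its values were seen, was Rpe65, the retinoid isomerase known from the pigment epithelium of the eye. It had r = 0.68 in the untreated (permutation p = 0.00998, adjusted 1.0) and 0.575 in the injected rats (exact permutation p = 0.116, adjusted 0.793), with rho = 0.501 (permutation p = 0.0994) and 0.19 (exact permutation p = 0.665). Rpe65 was at 6.73 and 6.58 TPM in Lean rats 1 and 2. It was at 4.62 to 6.73 TPM over all Lean and 2.61 to 4.12 TPM over the Obese rats. Its r in the untreated rats therefore holds this difference between the groups as well. Its slope on Lepr with the group means in the model was 0.17 (limma, Benjamini-Hochberg adjusted p = 0.868), and without the 2 farthest rats its r was 0.148 and -0.332. In the untreated rats the 3 haemoglobin genes, markers of red blood cells, were lower where Lepr was higher, with r = -0.727 for Hba-a1 (permutation p = 0.00263), -0.753 for Hba-a2 (0.00125) and -0.721 for Hbb (0.00108), all with an adjusted p of 1.0. They had the most negative r of the matched list genes there, and as markers of the same cells they do not count as 3 separate results. Without Lean rats 1 and 2 these r were -0.597, -0.566 and -0.714, and with the group means in the model the slopes did not pass (-0.16, -0.11 and -0.12; limma, Benjamini-Hochberg adjusted p = 1.0 for each). In the injected rats the same r were -0.242, -0.196 and -0.114, while rho was 0.357, 0.548 and 0.238, and without Lean+VEH rat 14 and Obese+TT rat 19 r was 0.759, 0.744 and 0.116, so the sign there depended on those rats. The summed TPM of the 3 genes was 3104 to 5471 in Lean, 4051 to 7019 in Obese, 2168 to 5767 in Lean+VEH and 4799 to 8387 in Obese+TT rats, and the part of blood content in the Lepr values was not tested.

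**Figure D5:**
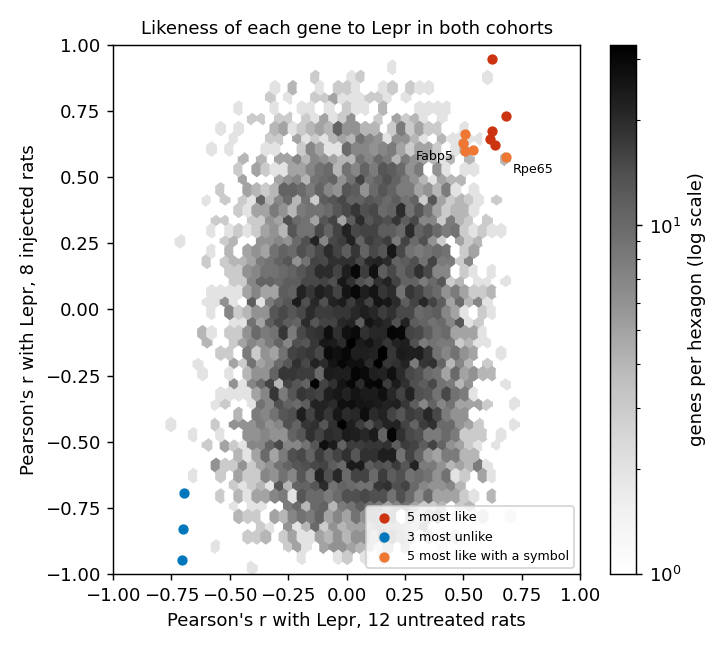
Pearson's r of each gene with Lepr on the log2(TPM + 0.1) scale in the 12 untreated (horizontal) and the 8 injected rats (vertical), with the number of genes per hexagon in grey and the genes most like and most unlike Lepr as coloured points. The most alike genes reach a smaller r of 0.61 to 0.68, at the corner of a cloud centred near 0 in the untreated (median 0.05) and slightly below it in the injected rats (median -0.14).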

How the data were processed

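RNA of the choroid plexus was measured by paired-end RNA-seq, 1 library per rat. Per the labels and the paper's methods, the authors mapped reads to Rnor_6.0 with STAR 2.7.9a. The submitters' processing notes also list DESeq2 3.16, which the authors ran on STAR gene counts to find differential expression, and RSEM 1.3.3, with no role given. The authors deposited TPM, which sums to 1000000 per rat, and FPKM, and no counts were analysed here, so the depth of each library is not known from the values and no counting interval can be given. The genes and lists were chosen with earlier results of these data known.

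From the TPM, limma 3.58.1 in R 4.3.3 (eBayes with trend) was run on log2(TPM + 0.1), keeping genes that averaged 0.1 TPM or more over the rats compared, with Benjamini-Hochberg adjustment over all genes tested and a threshold of 0.05. A fold change on this scale understates the change of low genes. Lepr alone was tested by exact two-sided permutation of the difference of mean log2(TPM + 0.1). Correlations used 100000 permutations in the untreated and all 40320 in the injected rats. P-values measure the spread between the rats sequenced.

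Named genes are Lepr, the pathway lists, marker genes, the 5 genes most and 3 least like Lepr by r in both cohorts, and the 5 genes with the largest gap in the rat with the highest Lepr, with genes without a symbol given only in part. Symbols, from the paper's tables, were at hand for 2616 of the 32883 identifiers. The macrophage, neuron, oligodendrocyte, hypothalamic and pituitary marker lists had 0 matched genes and were not analysed here. A further gene of the signalling list, left out of its counts, is not reported here. Python 3.11.15, pandas 2.3.3 and matplotlib 3.10.9 were used for the remaining steps. Alternatives were another pseudocount, a filter at 1 TPM, median-ratio scaling, TPM without Ttr, FPKM, other limma settings, a fit of all rats and leaving out rats.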

Additional observations from a re-analysis of the deposited data

Results flagged for a closer look

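The 33 pathway and marker genes matched here, Lepr among them, were each examined in every group for 1 rat lying well apart from the rest, as was the number of detected genes, giving 136 cases in groups of 4 or 6 rats. The rule took the gap to the next rat as a share of the range of the group. For independent, normally distributed values chance would give about 1 in 20, or 6.8 of 136, and 11 were found. TPM values need not be so distributed, related genes move together, and Lepr in rat 14 was known to be high. The count of 11 against 6.8 is therefore no test. Lepr in Lean+VEH rat 14 was among the 11, at 358.77 TPM with the other 3 rats at 43.1 to 58.83 TPM. Among the signalling genes, Obese+TT rat 20 had a low Mapk3 of 50.29 TPM, with the others at 59.06 to 60.12 TPM.

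The remaining 9 were markers. Otx2 was at 7.85 TPM in Obese rat 10 against 67.29 to 85.94 TPM in the other Obese rats, and at 200.06 TPM in Obese+TT rat 20 against 107.3 to 115.01 TPM. Folr1, a folate receptor of the epithelium, was low at 970.43 TPM in Obese rat 10 (others 1067.2 to 1111.8 TPM) and at 1245.0 TPM in Lean+VEH rat 15 (others 1379.9 to 1400.2 TPM). Col1a1, a collagen gene, was high at 1.47 TPM in Obese+TT rat 20 (others 0.53 to 0.61 TPM), and Myh11 low at 6.15 TPM in Lean+VEH rat 16 (others 8.08 to 8.43 TPM). Ptgds, a prostaglandin synthase listed as a meningeal marker, was low at 5604.5 TPM in Lean rat 6 (others 6304.7 to 6648.2 TPM). Hba-a1 and Hba-a2 were high at 3302.8 and 1105.6 TPM in Lean+VEH rat 13, against 1213.2 to 1286.8 and 409.15 to 495.78 TPM. Rats 10, 20, 15, 16, 6 and 13 had Lepr at 30.43, 62.81, 43.1, 52.97, 32.25 and 58.83 TPM, and the part of these markers in it was not tested.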

How the results depend on the processing

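Lepr in Obese against Lean rats kept its direction and stayed short of the threshold under all 21 alternatives (log2 fold change -0.63 to -0.27 when 1 rat was left out), and Obese+TT against Obese passed under 17 of 18 (0.80 to 1.03 when 1 rat was left out), the exception being the fit of all 20 rats (0.94, limma with Benjamini-Hochberg adjusted p = 0.0679). Obese+TT against Lean+VEH ranged from -0.70 to 0.32 when 1 rat was left out, with the opposite sign without Lean+VEH rat 14. Lean+VEH against Lean ranged from 0.11 (without rat 14) to 1.13, and passed only without Lean rats 1 and 2 and Lean+VEH rat 14 (0.54). Those 3 rats were left out because of their Lepr values, so that pass is no independent test. The difference of both obese against lean contrasts ranged from -0.18 to 0.83 and changed sign without Lean rat 1 (-0.12) and Lean+VEH rats 13 (-0.04), 15 (-0.18) and 16 (-0.09) and Obese+TT rat 19 (-0.01). With Lean rats 1 and 2 and rat 14 left out together, an alternative chosen after seeing the data, it was 0.41 (adjusted p = 0.842). The spread difference ranged from 0.103 to 0.417 in the untreated and from -0.0521 (without rat 14) to 0.817 in the injected rats. Genes whose slope on Lepr passed numbered 2, 15 with a pseudocount of 1, 4 among genes averaging 1 TPM or more, 4 without Ttr, 0 without the trend, and 0 (without rat 14 or 15) to 25 (without Lean rat 1) when 1 rat was left out. Over all genes, the counts past the threshold within cohorts were 0 in the reported fits. They were 1 for the untreated rats with median-ratio scaling and with FPKM, and reached 3 for the untreated rats and 6 for the injected rats in the fit of all 20 rats, 25 for the injected rats without Lean+VEH rat 13, and, for the difference of contrasts, 10 without Ttr and 14 without Lean+VEH rat 13. The causes were not tested. No paired analysis was possible because the groups share no replicate numbers. The depth of each library is not known from these values, and 4 rats against 4 cannot reach an exact p under 0.0286.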
